A study of Mus musculus with 6 samples.

Results

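The augmin complex (HAUS complex) subunits Haus1 to Haus8 were taken by gene symbol, and 7 of the 8 were measured by a probe set of their own on the array, of 19938 genes measured in this way. Haus3 shares its probe set with Poln, a DNA polymerase gene that overlaps it, so it has no value of its own. The members were chosen by their log2 differences between SAHA and saline, already known from these arrays, so their values in that contrast are a description and not a test. The mice were of the 129S6/SvEv strain, wild type and aged 8 to 12 weeks, and RNA was taken from the frontal cortex. SAHA (suberoylanilide hydroxamic acid, vorinostat), an inhibitor of zinc-dependent deacetylases that includes the tubulin deacetylase Hdac6 among its targets, was injected at 20 mg per kg for 21 days in 3 samples, and vehicle, named saline in the sample titles, in the other 3. The mice were killed 1 day after the final dose, and each sample was hybridised to 1 array. No sex, pooling or scan batch is given in the sources used here, and nothing states that each sample was 1 mouse, so the errors below cover only how these samples varied, part of which may be technical.

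Augmin binds along the side of an existing microtubule and recruits the gamma-tubulin ring complex there, so that a new microtubule branches from the old one with the same polarity. In dividing cells this amplifies the microtubules of the spindle. Neurons no longer divide, and in them augmin is known to maintain microtubule density and the uniform polarity of microtubules in the axon. The complex is built from a pair of subassemblies. Haus2, Haus6, Haus7 and Haus8 form the one that contacts the microtubule and, through Haus6, the gamma-tubulin adaptor Nedd1. Haus1, Haus3, Haus4 and Haus5 form the other.

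Promoter sequences are shown for Haus6 and Haus5, which lay on opposite sides of their saline levels, 1 from each subassembly. Each is read 5′ to 3′ on the minus strand, from RefSeq, build GRCm38.p6, and ends 10 bases past the outermost annotated start of the gene. The Haus6 sequence is chr4:86612066-86612305 and the Haus5 sequence is chr7:30664985-30665244. Capitals mark a CCAAT box, read here on the opposite strand as ATTGG, and a cAMP response element, TGACGTCA.
Haus6: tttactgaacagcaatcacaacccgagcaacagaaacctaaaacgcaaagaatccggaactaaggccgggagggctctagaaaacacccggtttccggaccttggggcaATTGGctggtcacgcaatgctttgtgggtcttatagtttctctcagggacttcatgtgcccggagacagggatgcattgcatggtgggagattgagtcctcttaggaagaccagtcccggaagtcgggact
Haus5: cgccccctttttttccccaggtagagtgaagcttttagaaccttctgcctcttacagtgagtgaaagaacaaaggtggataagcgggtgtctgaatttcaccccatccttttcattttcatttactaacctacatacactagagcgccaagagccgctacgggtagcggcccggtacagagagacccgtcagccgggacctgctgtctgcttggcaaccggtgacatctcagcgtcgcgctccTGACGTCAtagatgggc

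Motifs were searched on both strands, from 250 bases before to 50 after each start. Haus1 was not searched. Of the 7 other augmin genes, Haus3 included, 4 held CCAAT (Haus3, Haus4, Haus6 and Haus7), where 37.4% of all 32851 windows did. The GC box GGGCGG was in 5 of the 7 (Haus2, Haus3, Haus4, Haus7 and Haus8) and in 35.7% of all windows, and can overlap itself in runs of G and C. Haus5 alone of the 7 held TGACGTCA, which was in 1.79% of all windows, and it held neither a CCAAT box nor a GC box. TTTGAA, the core of the cell cycle genes homology region, was in none of the 7 and in 17.9% of all windows, and the E-box, CACGTG, in none of the 7 and in 7.15%. The windows of the 7 genes held 17 to 37 CpG dinucleotides, where the median window held 7 and the upper quartile was 20. The Haus6 and Haus5 windows held 17 each and shared none of the motifs searched. These matches describe letters in a window and are not binding sites.

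Before the results, 2 libraries have to be set apart. Saline replicate 1 gave a log2 signal of 10.9 for Xist, the RNA of the inactive X chromosome, which was at 4.63 to 4.88 in the other 5 libraries, although the Y-linked gene Eif2s3y was at 9.20 there. In SAHA replicate 3 Eif2s3y was at 7.80, against 9.18 to 9.25 in the other 5, and the Y-linked genes Kdm5d and Uty were also lowest there, at 7.23 and 6.74. The differences of the subunits and the counts at an unadjusted p under 0.05 in limma for subunits, microtubule lists and all genes are given without them as well. The pairs within arrays, subassembly averages, neighbours, alike profiles, single genes of other lists and marker lists are given only with them. Array medians ran from 6.66 to 6.71 in saline and from 6.72 to 6.75 in SAHA. For the labelled tissue, 7 genes listed as excitatory neuron markers had signals between 9.37 and 13.0, where the median gene was at 6.94. The 6 measured genes of a striatal list lay between 6.79 and 10.3, so these signals do not place the tissue in the frontal cortex. Signals of different probe sets depend on their probes, so no subunit is ranked above another by its signal.

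Haus2 and Haus6 were lower in SAHA than in saline, Haus5 and Haus4 were higher, Haus1 was slightly lower, and Haus7 and Haus8 had overlapping groups. Of the 7 subunits, 5 had groups that did not overlap, 3 of them lower in SAHA and 2 higher, where 23.9% of all genes did not overlap, 10.4% of all genes on the lower side and 13.6% on the higher. An unadjusted p under 0.05 in limma was reached by 4 of the 7, where 17.4% of all genes reached it, 2 of these lower (5.56% of all genes) and 2 higher (11.9% of all genes). Because the subunits were proposed from this contrast, nothing is read from these counts. The count was also 4 with both libraries set apart above left out, where 10.5% of all genes reached that p. By the mean, 2 of the 7 were higher in SAHA, where 52.9% of all genes were. The median difference over the 7 was -0.17 on the log2 scale, and 0.011 over all genes. limma with Benjamini-Hochberg adjustment called 0 genes, members or others, at a lowest adjusted p of 0.116, while 3472 genes lay at an unadjusted p under 0.05. In bulk tissue, a change in the number of cells that express a gene and a change in RNA per cell cannot be told apart.

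**Figure D1:**
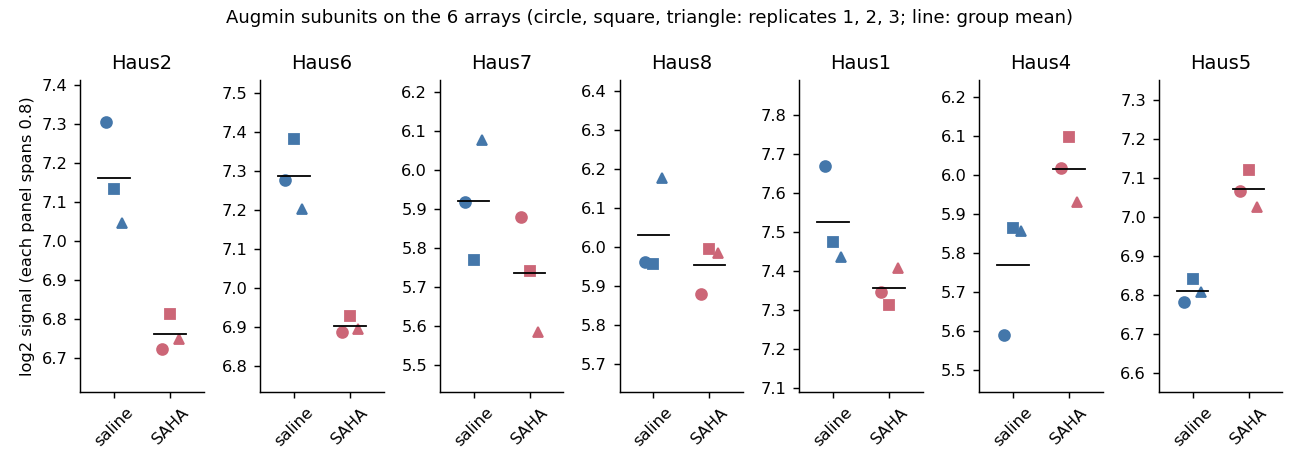
Log2 signal (vertical axis, each panel spanning 0.8) of the 7 measured augmin subunits on the 3 saline arrays (blue) and the 3 SAHA arrays (red), with the replicate given by the shape of the point and the group mean by a line. The groups lie apart for Haus2, Haus6, Haus1, Haus4 and Haus5, and overlap for Haus7 and Haus8.

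Haus2, a subunit of the microtubule-contacting subassembly, had log2 signals of 7.30, 7.13 and 7.05 in saline replicates 1 to 3 and of 6.72, 6.81 and 6.75 in SAHA. All SAHA values were below all saline values, and the nearest arrays were 0.23 apart. The means of 7.16 ± 0.13 and 6.76 ± 0.047 (SD, n = 3) differed by -0.40 (SE 0.078, 95% CI -0.58 to -0.22), a level 1.32-fold higher in saline. Of the 19938 genes, 57 had a lower difference, a rank in the same contrast by which the subunits were chosen. Saline replicate 1 was the highest array, and leaving out both that library and SAHA replicate 3 gave -0.32.

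Haus6, the large subunit that binds Nedd1, was at 7.28, 7.38 and 7.20 in saline and at 6.89, 6.93 and 6.89 in SAHA. The SAHA arrays spanned 0.042 and lay 0.28 below the lowest saline array. Haus6 differed by -0.38 (SE 0.065, 95% CI -0.53 to -0.23), from a mean of 7.29 ± 0.089 to 6.90 ± 0.022 (SD, n = 3), and was 1.31-fold higher in saline. Its difference was -0.39 without saline replicate 1 and SAHA replicate 3, so it was as large without those libraries. Over the 6 single libraries left out in turn, it ranged from -0.43 to -0.34.

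Haus7, encoded on the X chromosome, was at 5.92, 5.77 and 6.08 in saline and at 5.88, 5.74 and 5.59 in SAHA. The groups overlapped, with saline replicate 2 below SAHA replicate 1. In the library with high Xist, saline replicate 1, Haus7 lay between the other saline values. The difference was -0.19 (SE 0.10, 95% CI -0.42 to 0.051). It was -0.11 without saline replicate 3 or without SAHA replicate 3, and -0.28 after cyclic loess normalization. With saline replicate 1 and SAHA replicate 3 both left out, it was -0.11 as well. Haus8, which holds a microtubule-binding tail, was at 5.96, 5.96 and 6.18 in saline and at 5.88, 5.995 and 5.98 in SAHA. Saline replicate 3 stood above the other 5 arrays, which lay within 5.880 and 5.995. The difference of -0.078 (SE 0.079, 95% CI -0.26 to 0.10) was -0.0051 without saline replicate 3, -0.041 without SAHA replicate 1, -0.12 after median centring, -0.15 after quantile normalization and -0.17 after cyclic loess. With saline replicate 1 and SAHA replicate 3 both left out, the Haus8 difference was -0.13. All 4 members of this subassembly had a negative difference on the deposited values and under each of the alternatives that measured them.

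Haus5, of the other subassembly, was at 6.78, 6.84 and 6.81 in saline and at 7.07, 7.12 and 7.03 in SAHA. Both groups were tight, and the lowest SAHA array was 0.18 above the highest saline array. The means of 6.81 ± 0.030 and 7.07 ± 0.048 (SD, n = 3) differed by 0.26 (SE 0.058, 95% CI 0.13 to 0.39), a level 1.198-fold higher in SAHA. It was 0.27 without saline replicate 1 and SAHA replicate 3. A second, dimmer probe set of Haus5 was at 5.40, 5.32 and 5.21 in saline and at 5.52, 5.36 and 5.51 in SAHA. Its mean was also higher in SAHA, by 0.16 (SE 0.075, 95% CI -0.018 to 0.33), but its groups overlapped, since SAHA replicate 2 lay below saline replicate 1. The mean of both probe sets differed by 0.21 (SE 0.057). The figures, pairs and subassembly averages use the brighter probe set alone, and which probe set reads Haus5 better was not tested.

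Haus4 was at 5.59, 5.86 and 5.86 in saline and at 6.02, 6.10 and 5.93 in SAHA. Every SAHA array was above every saline array, but the nearest were only 0.067 apart, and saline replicate 1 was lower than the rest. Haus4 differed by 0.24 (SE 0.090, 95% CI 0.037 to 0.45), from 5.77 ± 0.16 to 6.02 ± 0.084 (SD, n = 3). Without saline replicate 1 the difference was 0.16, and after cyclic loess normalization it was 0.15. With saline replicate 1 and SAHA replicate 3 both left out, it was 0.20. Haus1 was at 7.67, 7.47 and 7.44 in saline and at 7.35, 7.31 and 7.41 in SAHA. Here saline replicate 1 was the highest array, and saline replicate 3 and SAHA replicate 3 were 0.028 apart. The difference of -0.17 (SE 0.076, 95% CI -0.35 to 0.0067) was -0.099 without saline replicate 1, and -0.13 when SAHA replicate 3 was left out as well. The probe set shared by Poln and Haus3 was at 6.85, 6.89 and 6.59 in saline and at 6.60, 6.96 and 6.66 in SAHA, with overlapping groups, and its signal cannot be split between the genes.

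**Figure D2:**
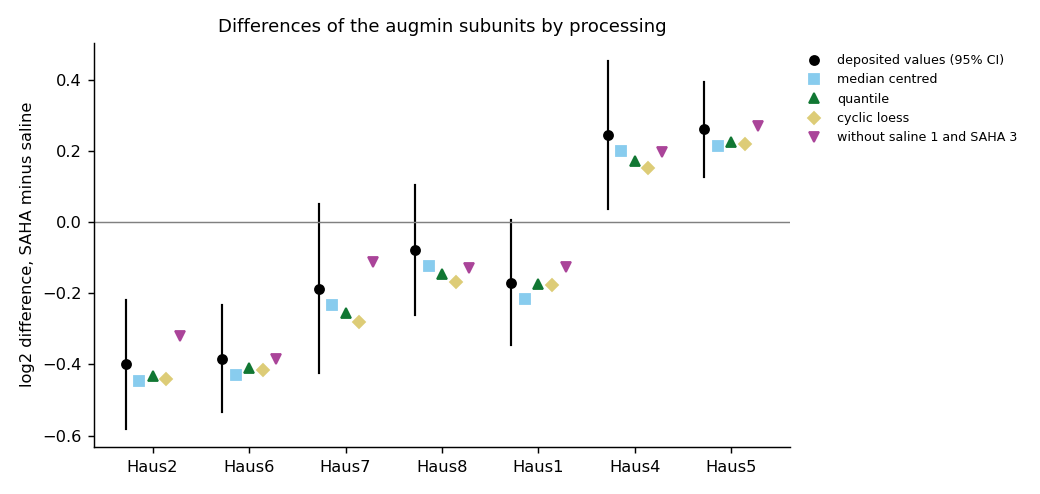
Log2 difference, SAHA minus saline (vertical axis), of each augmin subunit on the deposited values with its 95% confidence interval (black), after 3 other scalings of the arrays, and on the 4 arrays left when saline replicate 1 and SAHA replicate 3 were dropped. The sign of each subunit is the same at all 5 points, while Haus4 moves from 0.24 to 0.15 and Haus8 from -0.078 to -0.17 after cyclic loess normalization.

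The subunits were also set against each other within each array, where a shift common to all genes of the array, such as median centring makes, drops out. Quantile and cyclic loess normalization move genes by different amounts and do not drop out. The size of such a difference carries no meaning, because it compares probe sets, but its shift between groups does. Haus5 minus Haus6 was -0.50, -0.54 and -0.40 in saline and 0.18, 0.19 and 0.13 in SAHA. Its groups did not overlap, and its shift was 0.65. Haus2 minus Haus5 shifted by -0.66, from 0.52, 0.29 and 0.24 to -0.34, -0.31 and -0.28. Haus4 minus Haus6 shifted by 0.63, with groups apart.

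Haus2 minus Haus6, by contrast, was 0.026, -0.25 and -0.16 in saline and -0.16, -0.11 and -0.15 in SAHA, a shift of -0.015 with overlapping groups. Haus4 minus Haus5 shifted by -0.016, also with overlapping groups. Of the 21 pairs of subunits, 13 had groups that did not overlap and 8 overlapped. The pairs reuse the same 7 probe sets, and no share over pairs of other genes was computed, so nothing is read from this count. Relative to their saline means, Haus2, Haus6, Haus7 and Haus8 averaged 0.015, -0.040 and 0.025 in the saline libraries and -0.26, -0.23 and -0.30 in the SAHA libraries. Haus1, Haus4 and Haus5 averaged -0.022, 0.024 and -0.0022 in saline and 0.11, 0.14 and 0.086 in SAHA, although Haus1 on its own was lower. Within the complex the measured differences thus had both signs. These shifts follow from the differences that chose the subunits and are given without a test.

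**Figure D3:**
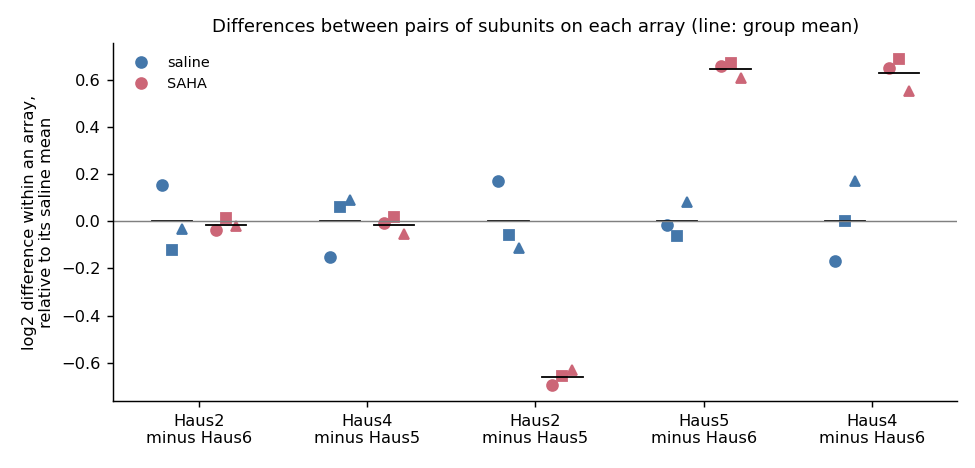
Log2 difference between pairs of augmin subunits within each array (vertical axis), relative to the mean of the saline arrays, for 3 saline (blue) and 3 SAHA (red) arrays, with group means as lines. The pairs Haus2 and Haus6, and Haus4 and Haus5, stay near 0, while the pairs that join Haus4 or Haus5 to Haus2 or Haus6 shift by 0.63 to 0.66 in size.

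Genes that overlap the subunits in RefSeq, or lie nearest on either side, were read for the same contrast, and 17 of them were measured. Of these, 5 had groups that did not overlap, 2 lower in SAHA and 3 higher, where 23.9% of all genes did not overlap. An unadjusted p under 0.05 was reached by 2 of the 17, where 17.4% of all genes reached it, and limma called 0 of them, with adjusted p between 0.186 and 0.978. The greatest difference was that of Pstpip2, a gene beside Haus1, at 8.25 in saline and 7.86 in SAHA, or -0.39 (SE 0.12), the same sign as Haus1. Use1, beside Haus8, was lower as well, by -0.085 (SE 0.057) with groups apart.

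The neighbours whose groups lay apart on the higher side were Stard9, Nat8l and Myo9b. Stard9, a mitotic kinesin gene beside Haus2, was at 7.14 in saline and 7.36 in SAHA and differed by 0.21 (SE 0.089). Nat8l, the gene of the enzyme that makes N-acetylaspartate, beside Haus3, differed by 0.14 (SE 0.062), and Myo9b, a myosin gene that overlaps Haus8, by 0.15 (SE 0.068). Lrrc57, a leucine-rich repeat gene whose outermost start lies within Haus2 on the opposite strand, differed by 0.11 (SE 0.063) with overlapping groups, where Haus2 differed by -0.40. Rraga, a GTPase of nutrient sensing beside Haus6, differed by -0.11 (SE 0.068), and Rbm42, an RNA-binding protein gene beside Haus5, by -0.068 (SE 0.067). Atp5a1, an ATP synthase gene that overlaps Haus1, differed by -0.047 (SE 0.055). The other 8 had overlapping groups and differences from -0.16 for Prmt5 to 0.19 for Mxd4.

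The profiles most like those of Haus2 and Haus6 were found as the smallest root mean square distance between log2 values, each centred on its own mean over the 6 arrays, among 9663 other genes at or above the median signal. Nearest to Haus2 were Mgat4a, an enzyme of N-glycan branching, Cd24a, a surface glycoprotein, and Spopl, an adaptor of the cullin-3 ubiquitin ligase, at distances of 0.030, 0.048 and 0.049, where the median gene was at 0.20. Mgat4a was at 9.04, 8.88 and 8.80 in saline and at 8.52, 8.59 and 8.45 in SAHA, and like Haus2 was highest in saline replicate 1. Nearest to Haus6 were Mrpl42, a protein of the mitochondrial ribosome, Acot9, a mitochondrial thioesterase, and Srp14, a protein of the signal recognition particle, at distances of 0.033, 0.048 and 0.055, where the median gene was at 0.19. Mrpl42 was at 8.49, 8.58 and 8.48 in saline and at 8.11, 8.21 and 8.17 in SAHA. Such genes were picked for their likeness over 6 arrays, so their differences, from -0.39 for Mgat4a to -0.30 for Acot9, are a description.

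A list of the gamma-tubulin ring complex, which augmin recruits, and of anchors and other factors of microtubule nucleation was measured for all 18 genes. By the mean, 16 were lower in SAHA and 2 higher, where 52.9% of all genes were higher. The list was bright, with a median signal of 8.18, where the median gene was at 6.94. Its median difference was -0.072, and genes at or above the median signal had a median of -0.039. In limma 1 gene of the list reached an unadjusted p under 0.05, or 5.56% against 17.4% of all genes. That gene was Mzt1, a small protein that stabilises the ring complex, at 9.33, 9.25 and 9.12 in saline and 8.94, 9.11 and 8.98 in SAHA. The highest SAHA value was just below the lowest saline value, and the difference was -0.22 (SE 0.079) at an adjusted p of 0.22 in limma. Nedd1, the partner of Haus6, differed by -0.088 (SE 0.077), and Tubg1 and Tubg2, the gamma-tubulins, by -0.027 (SE 0.065) and -0.077 (SE 0.055). Ckap5, a microtubule polymerase and the brightest of the list, differed by -0.043 (SE 0.064). The mean of the list was 8.13 to 8.17 on the saline arrays and 8.05 to 8.11 on the SAHA arrays. Groups did not overlap for 6 of the 18, 5 of them lower, where 10.4% of all genes lay apart on the lower side. No gene of the list passed the adjusted threshold in limma.

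Of 20 spindle and cell division genes, 19 were measured, 13 higher by the mean and 6 lower, with a median difference of 0.032. This list was dim, with a median signal of 5.75, where the median gene was at 6.94. In it 5 reached an unadjusted p under 0.05, or 26.3% against 17.4% of all genes. Of these 5, 4 were higher (11.9% of all genes) and 1 lower (5.56% of all genes). Over all genes 2364 were higher and 1108 lower at that p. With the dimmer genes, those below the median, left out, the counts were 587 and 1316. The part of signal level in the 4 higher genes was not tested. The 4 higher were Top2a, a topoisomerase of dividing cells, by 0.38 (SE 0.088), the kinase gene Aurkb by 0.30 (SE 0.079), Cdc20, an activator of the anaphase-promoting complex, by 0.29 (SE 0.081), and Birc5, the survivin gene, by 0.23 (SE 0.090). Top2a was at 4.96, 5.12 and 5.28 in saline and at 5.45, 5.48 and 5.57 in SAHA. Kif23, a kinesin of cytokinesis, differed by -0.18 (SE 0.076). The lowest adjusted p in limma over the list was 0.129, so none was called. Mki67, a marker of dividing cells, differed by 0.031 (SE 0.064), and Numa1, the brightest of the list, by -0.010 (SE 0.067). The list mean per array overlapped between the groups, at 5.82 to 5.92 in saline and 5.89 to 5.95 in SAHA.

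Neuronal tubulins and microtubule-binding proteins were measured for all 32 listed genes. By the mean, 25 were lower and 7 higher, where 52.9% of all genes were higher. This list too was bright, with a median signal of 9.74, where the median gene was at 6.94. Its median difference was -0.046, close to the -0.039 of all genes at or above the median signal. In limma 2 of the 32 reached an unadjusted p under 0.05, or 6.25% against 17.4% of all genes. Groups did not overlap for 9 of the 32, 8 of them lower, where 10.4% of all genes lay apart on the lower side, and the list mean was 9.97 to 10 on the saline arrays and 9.93 to 9.95 on the SAHA arrays. At an unadjusted p under 0.05 were Camsap1, which caps minus ends, at -0.18 (SE 0.069), and the beta-tubulin gene Tubb2b, at 0.18 (SE 0.073). Camsap1 was at 9.06, 9.12 and 9.23 in saline and 8.89, 8.97 and 9.01 in SAHA. Stmn1, a tubulin-binding protein and the brightest of the list, differed by -0.059 (SE 0.054). Of the enzymes that modify tubulin or sever microtubules, 17 of 20 were measured and 0 reached that p in limma. Hdac6, the tubulin deacetylase, differed by -0.10 (SE 0.091), Atat1, the tubulin acetyltransferase, by -0.027 (SE 0.062), and Agtpbp1, a deglutamylase and the brightest of this list, by -0.048 (SE 0.062). Together 8 of the 86 measured genes of the 4 lists, or 9.3%, reached an unadjusted p under 0.05. That count was 3 without saline replicate 2, where 15.0% of all genes reached that p. It was 6 without saline replicate 1 and SAHA replicate 3 (10.5% of all genes). With a variance trend in limma it was 13 (19.0% of all genes).

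**Figure D4:**
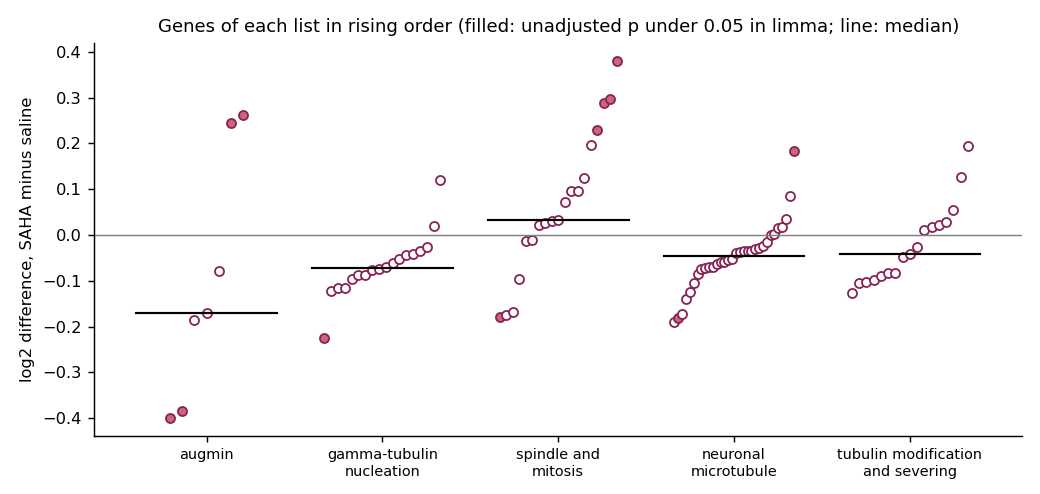
Log2 difference, SAHA minus saline (vertical axis), of the 7 augmin subunits and of the genes of 4 other microtubule lists, sorted within each list, with filled points for an unadjusted p under 0.05 in limma and a line at the list median. Augmin has 4 filled points of 7, on both sides of 0, gamma-tubulin nucleation 1 of 18, spindle and mitosis 5 of 19, neuronal microtubule 2 of 32, and tubulin modification and severing 0 of 17.

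The mean signal of the markers of other cells lay apart between the groups in a pair of lists. Red cell and neutrophil genes had a median signal of 5.8 and choroid plexus and ependymal genes 6.32, below the median gene at 6.94. Over all genes, 17.4% reached an unadjusted p under 0.05, 11.9% on the higher side. For red cell and neutrophil genes, 5 of 7 did, all higher in SAHA, and the list mean per array was 5.66 to 5.77 in saline and 5.95 to 6.001 in SAHA. For endothelial and mural cell genes, 2 of 8 did, both higher, with list means of 7.34 to 7.37 and 7.41 to 7.49. The list mean of oligodendrocyte genes was 8.60 on the array of SAHA replicate 3 and 8.27 and 8.26 on the other SAHA arrays, against 8.44 to 8.49 in saline. Of choroid plexus and ependymal genes, 2 of 8 reached that p, both higher, with a median difference of 0.13, where the endothelial list had 0.072, but their list means overlapped, at 6.41 to 6.66 and 6.58 to 6.66. Astrocyte, microglia, oligodendrocyte precursor, interneuron, excitatory neuron and striatal list means also overlapped between the groups. Of the excitatory neuron genes, however, 5 of 7 had groups that did not overlap, where 23.9% of all genes did not. Of these 5, 4 were higher in SAHA (13.6% of all genes) and 1 lower (10.4% of all genes). Differences in that list ran from -0.23 to 0.11. The array has no true zero, so no marker can be called absent. The part of these cells in the augmin values was not tested.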

How the data were processed

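Total RNA of 3 SAHA and 3 saline samples (200 ng each) was amplified by a whole-transcript method, and the biotin-labelled cDNA was run on Affymetrix arrays, per the labels' protocols. The authors used Affymetrix Expression Console and RMA, per the submitters' processing notes, and no version is given in the sources used here. The deposited values are log2 signals, from 1.43 to 14.2. RMA normalises between arrays, so a distortion on 1 array can spread over its probe sets. With 3 arrays a group, the median SE over all genes was 0.077.

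Of 35556 probe sets, 21789 pair with 1 gene symbol in the platform annotation, 1621 with several and 12146 with none. The brightest single-symbol probe set stood for each gene, and 0 sample columns were left unused. Differences, SE and 95% intervals come from lmFit and eBayes of limma 3.58.1 (R 4.3.3) over all 19938 genes, two-sided and unfiltered, with Benjamini-Hochberg adjustment and a threshold of 0.05. The fit was also run on simulated data. The differences planted there were larger than those of the subunits, so the run does not show how differences of their size are recovered. An exact permutation of 3 against 3 cannot go below 0.1. Groups came from the sample titles, and no 2 arrays were identical. The members, gene lists and motifs were chosen with earlier results of these data known. Named are all subunits, from each microtubule list up to 5 genes at an unadjusted p under 0.05 with groups apart and its brightest gene, the 3 profiles nearest to the 2 subunits of greatest difference, and the sex-linked check genes. Nedd1, Tubg1, Tubg2, Mki67, Hdac6, Atat1 and the neighbouring genes were added for their roles or position, after their values were seen. Alternatives were other scalings, a filter on dim genes, other probe set rules, variance priors, array weights, a replicate block and libraries left out.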

Additional observations from a re-analysis of the deposited data

How the results depend on the processing

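Each subunit kept the sign of its difference under every alternative that measured it, 17 for Haus1, Haus2 and Haus6 and 16 for Haus4, Haus5, Haus7 and Haus8. The count of subunits at an unadjusted p under 0.05 in limma lay between 3 and 6. Under the filter at the median signal it was 3 of only 3 subunits tested, where 19.1% of the genes kept reached that p. It was also 3 without saline replicate 1 (12.2% of all genes) and without SAHA replicate 2 (19.4%). The 6 came after median centring, where 17.8% of all genes reached it. The median difference over the subunits was -0.22 after median centring, -0.38 among the 3 subunits at or above the median signal, where fewer were tested, -0.14 with array weights, and -0.13 without saline replicate 1 and SAHA replicate 3, and it ranged from -0.20 to -0.11 with 1 library left out. Genes called by limma at an adjusted p under 0.05 numbered 27 under the filter at the median signal, 28 with a variance trend, 31 when that trend was robust, and 0 with any 1 library left out. Haus6 was the 1 subunit among them, only under the signal filter, at an adjusted p of 0.040. Over its alternatives that p ranged from 0.040 to 0.39. The share of all genes at an unadjusted p under 0.05 was 10.5% without saline replicate 1 and SAHA replicate 3, and 12.2% to 19.4% with 1 library left out. It was 19.0% with a variance trend and 18.9% when that trend was robust. In the 4 microtubule lists the count of 8 was 13 with a variance trend, 14 when that trend was robust, and 3 to 9 with 1 library left out. The cause of these changes was not tested. Of genes at an unadjusted p under 0.05, 2364 were higher and 1108 lower on the deposited values, 1434 and 2113 after median centring, 1606 and 1129 after quantile normalization, 1360 and 1287 after cyclic loess, 587 and 1316 under the signal filter and 2064 and 1720 with a variance trend.

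With the replicate number as a block, the counts were 4 subunits and 7 genes of the microtubule lists, and 0 genes were called. Over all genes, same-numbered samples did not deviate together, with correlations of -0.11, -0.079 and 0.015 for replicates 1, 2 and 3. The numbers were therefore not taken as pairs. The mean of the striatal list, however, was highest in replicate 3 of both groups. It was 8.02, 7.92 and 8.32 in saline replicates 1 to 3 and 7.91, 7.86 and 8.25 in SAHA. Haus4, Haus7 and Haus8 lie below the median signal and Haus5 just below it, and the values used here hold no background signal from which a detection limit could be set.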
